A study of Homo sapiens with 2 samples.

Results

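The 7 genes described here, ACTB, GAPDH, EEF1A1, EEF2, VIM, HSP90AB1 and PKM, encode mRNAs that are short and known to be abundant in most cultured human cells. The question was whether such mRNAs carry ADAR1 clusters, as they might if abundance alone gave a cluster. Each gene was represented by an hg19 interval, and a cluster was assigned to it when its midpoint lay inside on the strand of the gene. Of 23782 clusters in the list, 4, or 0.0168%, fell in these genes. All 4 lay in EEF1A1, and the other 6 genes held 0, so 1 of 7 genes (14.3%) had a cluster. Of all stretches of the genome with the same lengths, taken per strand, 1.37% (length of ACTB) to 9.56% (length of PKM) held at least 1 cluster of any class.

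The clusters come from crosslinking, immunoprecipitation and sequencing of ADAR1 in U87MG, an established glioblastoma (astrocytoma) cell line, at passage 6. RNA was linked to protein with 254 nm ultraviolet light, and the labels name no other treatment and no genetic change. The 2 libraries, AB1 and AB2, were pulled down with ADAR1 mouse monoclonal antibodies, and both carry the same catalogue entry. The authors deposited 1 list for both, with position, strand and an Alu or non-Alu class but no read number, so depth is unknown, replicate error could not be measured and no test was made. RNA levels were not measured in this series. The abundance of the 7 mRNAs in these cells is therefore background knowledge and not a value of this study.

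ADAR1 is a deaminase that edits adenosines to inosines where RNA is double-stranded. In human transcripts most such structure is known to come from Alu elements, primate retrotransposons whose inverted copies in introns and 3′ untranslated regions pair with each other. Compact housekeeping genes have little intron sequence in which such pairs could form. In the whole list, 84.9% of clusters carried the Alu class and 15.1% the non-Alu class.

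EEF1A1, the elongation factor that brings aminoacyl-tRNA to the ribosome, was the gene with clusters. Its interval is chr6:74225400-74230800 on the minus strand, 5.4 kb long, and 2.01% of windows of that length held any cluster. In the order of transcription the clusters lay at chr6:74229583-74229804 (222 bases), chr6:74228690-74228956 (267 bases), chr6:74228106-74228590 (485 bases) and chr6:74227746-74227976 (231 bases). All 4 were on the minus strand, that of the gene, and 0 clusters lay on the opposite strand. All 4 belonged to the non-Alu class. They make up 0.112% of the 3582 non-Alu clusters.

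The EEF1A1 clusters were packed into one stretch of the gene. They spanned 2059 bases, 38.1% of the interval, and covered 1205 of these bases, or 58.5%. Over the whole interval the covered share was 22.3%. Counting from the 5′ edge of the interval, the first midpoint stood at 1107 bases and the last at 2939.5 bases, so the part nearest the 3′ edge held none. The gaps between them, from the 3′ side, were 129, 99 and 626 bases.

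**Figure D1:**
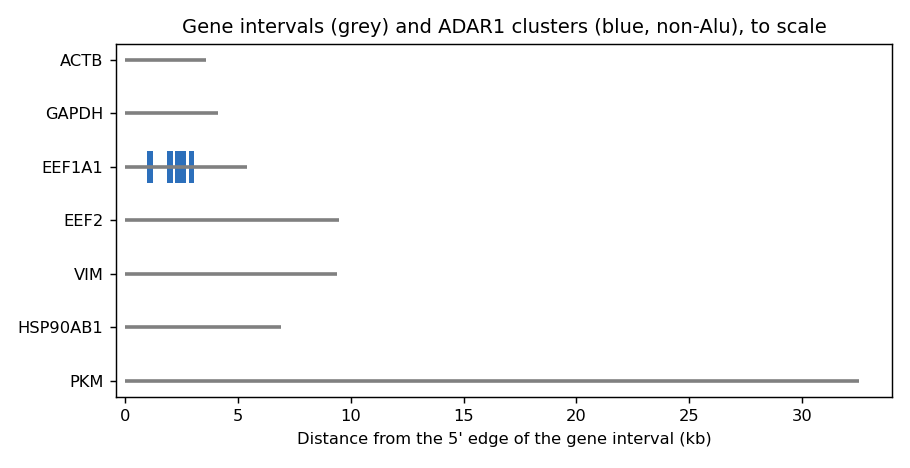
The 7 gene intervals drawn to scale from their 5′ edge (grey lines, x axis in kb), with ADAR1 clusters as blue boxes of their own length. The 4 boxes in EEF1A1 lie between about 1 and 3 kb from its 5′ edge, and the other 6 lines carry no box.

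Lengths from the annotation can be set beside these clusters, although the clusters themselves were not placed on exons, because the annotation used is of another build. In GENCODE release 29 the longest coding sequence of EEF1A1 has 1386 bases in 7 coding exons of 122 to 297 bases, separated by introns of 83 to 366 bases. The 485-base cluster was thus longer than any single one of these coding exons. It was also long for its class: 29 of the 3582 non-Alu clusters, 0.810%, were at least that long, against a class median of 191 bases. The cluster of 267 bases was matched or exceeded by 7.31% of the class, that of 231 bases by 20.5% and that of 222 bases by 25.8%. Each EEF1A1 cluster was therefore longer than the typical non-Alu cluster.

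Groups like that in EEF1A1 were few in the list. Taking non-Alu clusters of 1 strand, 18 places in the genome, EEF1A1 included, held 4 or more within a span no longer than its 2059 bases. Runs that overlapped were joined into 1 place, so a place can be longer, such as chr11:62285661-62294443 in AHNAK. This measure was chosen after the EEF1A1 values had been seen, and it has no test. AHNAK, a giant scaffold protein, held 2 of these places and MAP1A, a microtubule-associated protein, held 1. FN1, which encodes fibronectin, held 0. When the chromosomes were divided into windows of the length of the EEF1A1 interval, 26 of 1098108 windows, 0.00237%, held 4 or more non-Alu clusters. Among the windows with any cluster that share was 0.118%. The window length and the number 4 were both taken from EEF1A1, and most windows lie outside transcripts. These 2 shares are therefore a description and not a test of EEF1A1.

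EEF2, the other translation factor of the set, had no cluster. It moves the ribosome along the mRNA by a codon at each step. EEF2 has the interval chr19:3976000-3985500 on the minus strand and held 0 clusters in 9.5 kb, a length at which 3.38% of windows held one. Its coding sequence of 2574 bases is longer than that of EEF1A1. With 3 clusters as the limit that a count of 0 allows, the density in EEF2 could be up to 3.16 clusters per 10 kb. The exact 95% Poisson interval for a count of 0 ends higher, at 3.69 clusters, or 3.88 per 10 kb in EEF2. EEF1A1 had 7.41 clusters per 10 kb, with an exact 95% Poisson interval of 2.02 to 18.97, so the limit for EEF2 lies inside the interval for EEF1A1. These intervals and limits cover counting error only and treat clusters as independent, which neighbours on the same transcript need not be.

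Neither cytoskeletal mRNA carried a cluster. ACTB encodes cytoplasmic beta-actin, and its interval of 3.6 kb, chr7:5566700-5570300 on the minus strand, held 0, beside 1.37% of windows of that length with a cluster. VIM encodes vimentin, the intermediate filament protein of mesenchymal and glial tumour cells, and its 9.4 kb at chr10:17270200-17279600 on the plus strand held 0, beside 3.34% of windows. The limits allowed by these counts were 8.33 clusters per 10 kb in ACTB and 3.19 in VIM. In ACTB the limit is above the EEF1A1 density itself, so a density as high as that of EEF1A1 could not have been told from 0 in so short an interval.

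The glycolytic pair gave the same counts with very different room for introns. GAPDH, the glyceraldehyde-3-phosphate dehydrogenase, has a compact interval of 4.1 kb, chr12:6643500-6647600 on the plus strand, and held 0 clusters, with a limit of 7.32 per 10 kb. Of windows as long as GAPDH, 1.55% held a cluster. PKM encodes the muscle-type pyruvate kinase, which makes the last step of glycolysis. Its interval, chr15:72491300-72523800 on the minus strand, is 32.5 kb long and its longest intron between coding exons has 6930 bases. PKM held 0 clusters too, of the Alu as of the non-Alu class, at a length where 9.56% of windows held one. Its limit of 0.923 per 10 kb is the lowest of the 6 genes and lies below the EEF1A1 interval. That limit is per base of the whole interval, of which 1593 bases are coding, against 1386 coding bases in EEF1A1. It therefore counts mostly sequence outside coding exons, and no difference from EEF1A1 is read from it.

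HSP90AB1, the constitutively made cytosolic HSP90 chaperone, has an interval of 6.9 kb at chr6:44214800-44221700 on the plus strand and held 0 clusters, beside 2.53% of windows of that length with one. The limit was 4.35 clusters per 10 kb. None of the 7 intervals held a cluster on the opposite strand either.

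The background matters for reading these zeros. Over the whole list the mean density was 0.0401 clusters per 10 kb of each strand, and at that density the 6 genes without a cluster, 66.0 kb in all, would hold 0.265 clusters. The limit that their joint count of 0 allows is 0.455 clusters per 10 kb, 11.3 times the mean of the list. A count of 0 in these genes therefore could not be told from the genome-wide mean at this size. The 6 genes were grouped because each held 0, so their joint 0 is a description. At the same mean density all 7 genes would hold 0.286 clusters, against the 4 found in EEF1A1. The surroundings of the 7 genes were denser than the mean of the list. Their same-strand flanks had on average 0.136 clusters per 10 kb within 100 kb and 0.111 within 500 kb. The value of 0.286 is therefore a low background for these genes.

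The windows behind the shares given with each gene were laid end to end along every chromosome, on each strand. Windows of the 7 lengths would on average include 0.237 with a cluster, against 1 of the 7 genes. Most windows lie outside transcripts, so these shares are a background of the genome and not of expressed genes. Windows with another same-strand cluster within 100 kb held a cluster more often. Their shares were 3.61% at the length of ACTB, 4.06% at that of GAPDH and 5.24% at that of EEF1A1. They rose with length to 6.55% for HSP90AB1, 8.59% for VIM, 8.66% for EEF2 and 22.9% for PKM, and the mean number was 0.596. ACTB and VIM themselves had no same-strand cluster that near.

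**Figure D2:**
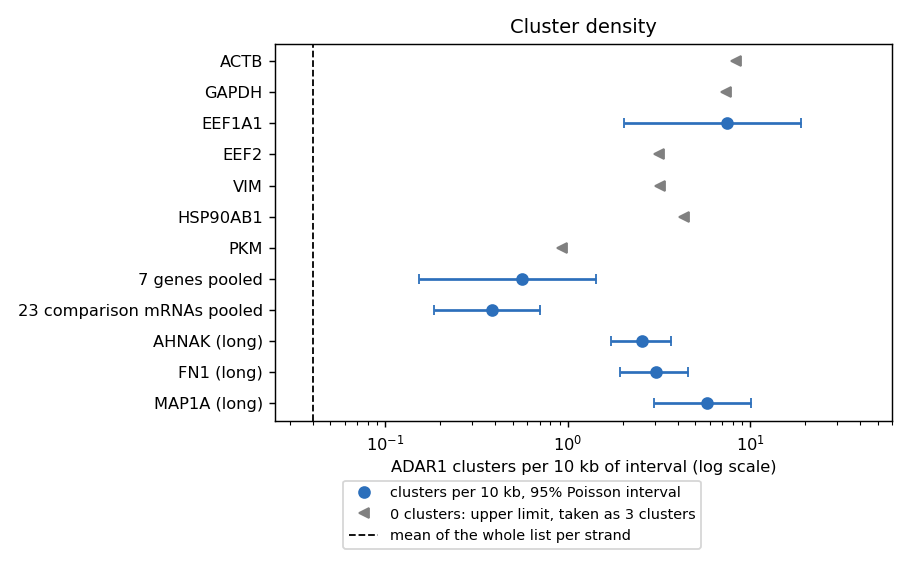
ADAR1 clusters per 10 kb of interval (x axis, log scale) for each of the 7 genes, for the pooled sets and for 3 long transcripts. Points are densities with exact 95% Poisson intervals, arrowheads mark the limit of 3 clusters for genes at 0, and the dashed line is the mean of the list, 0.0401 per strand; EEF1A1 is the only point among the 7 genes.

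The genes without a cluster lay at very different distances from the nearest one. PKM lay closest to clusters: the nearest on its strand was an Alu cluster, chr15:72488673-72488804, 2.56 kb beyond the 3′ edge of the interval, and another Alu cluster stood 14.7 kb beyond the 5′ edge. PKM had 6 same-strand clusters within 100 kb, all Alu. GAPDH had 4, all Alu, the nearest 22.3 kb beyond its 5′ edge. HSP90AB1 had 2 within 100 kb, the nearest an Alu cluster 26.4 kb from its 5′ edge.

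For EEF2 the nearest cluster on each side was non-Alu. These clusters, 17.2 kb beyond the 3′ edge and 69.4 kb beyond the 5′ edge, were 2 of the 3 same-strand clusters within 100 kb, and the third was Alu. Within 500 kb of EEF2, 19 of 22 were Alu. EEF1A1, whose own clusters were all non-Alu, had 4 same-strand clusters within 100 kb outside the interval, all Alu, the nearest 64.8 kb away. The non-Alu group in EEF1A1 thus ended well inside the interval, and no non-Alu cluster of that strand lay within 100 kb around it.

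ACTB and VIM had no same-strand cluster within 100 kb. For ACTB the nearest were at 109 kb on the 5′ side and 121 kb on the 3′ side, both Alu. For VIM they were at 725 kb and 419 kb, both Alu. Within 500 kb the order was another: VIM had 3 same-strand clusters, EEF1A1 5 outside its interval, HSP90AB1 10, ACTB 11, PKM 12, GAPDH 15 and EEF2 22. Over all 7 genes the flanks of 100 kb held 19 clusters, 16 of them Alu, a share close to the 84.9% of the whole list.

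**Figure D3:**
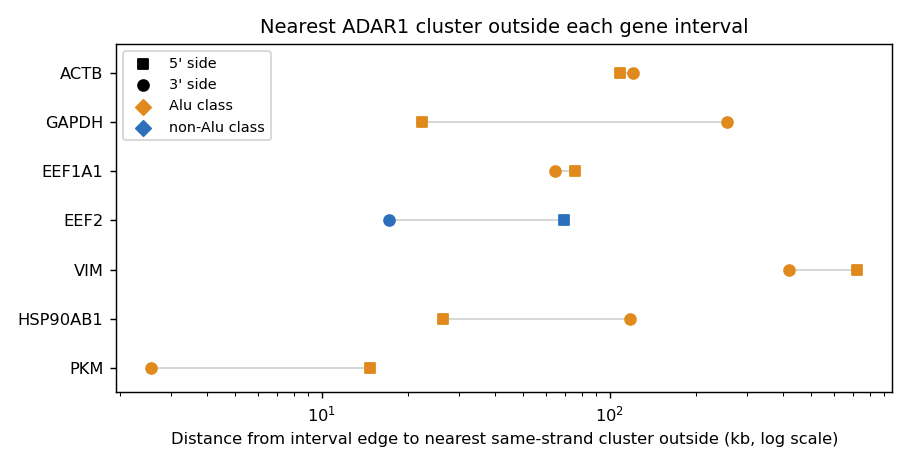
Distance from each gene interval to the nearest same-strand ADAR1 cluster outside it (x axis in kb, log scale), on the 5′ side (squares) and the 3′ side (circles), coloured by class. The nearest is 2.56 kb from PKM, VIM has none within 419 kb, and only EEF2 has non-Alu clusters as its nearest neighbours.

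Other short, abundant mRNAs were counted in the same way, from a list chosen with earlier results of these data known. Of 25 such genes, 23 had an interval whose chromosome, strand and length matched the annotation. Of these 23, 8 held at least 1 cluster (34.8%), and of the 7 genes 1 did (14.3%). The intervals ran from 1.2 to 59.2 kb in the 23 and from 3.6 to 32.5 kb in the 7 genes. No share of windows was computed for the 23 lengths, so the 2 percentages are not compared. The 23 genes held 10 clusters in 261 kb, 0.383 per 10 kb (exact 95% Poisson interval 0.184 to 0.705). At the mean density of the list, 261 kb would hold 1.05 clusters. The same-strand flanks of the 23 genes were denser than that mean, with on average 0.202 clusters per 10 kb within 100 kb and 0.102 within 500 kb. The 7 genes together had 0.560 per 10 kb (0.153 to 1.43), and the intervals overlap. The hg19 positions of the comparison genes were written from general knowledge. They could be checked for length but not for place, and a misplaced interval would tend to count 0.

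By role, the counts fell as follows. The 5 other cytoskeletal mRNAs (ACTG1, TUBA1B, TUBB, TMSB10 and MYL6) held 0 clusters in 16.7 kb. At the mean density of the list they would hold 0.0670, and their limit of 1.80 per 10 kb is 44.8 times that mean. This 0 therefore could not be told from the mean of the list. Of 4 other glycolytic genes, TPI1 (triosephosphate isomerase) and PGK1 (phosphoglycerate kinase) held 1 non-Alu cluster each, while ENO1 and LDHA held 0. Of 4 other genes of ribosome function, RPLP0, a protein of the ribosomal stalk, held 1 non-Alu cluster. EEF1G, a partner of EEF1A1 in the elongation factor complex, held 0, as did NPM1 and NCL. At the mean density of the list the 4 glycolytic genes would hold 0.237 clusters and the 4 of ribosome function 0.214. No gene among the 23 reached the 4 clusters of EEF1A1.

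The chaperones included a paralogue of HSP90AB1. HSP90AA1, the stress-inducible HSP90, held 2 clusters, both Alu, in an interval of 59.2 kb, against 0 in the 6.9 kb of HSP90AB1. The longest intron between coding exons of HSP90AA1 has 37164 bases. Its 2 cluster midpoints stood at 6328 and 16973.5 bases from the 5′ edge. Whether they lie in the short, abundant mRNA of HSP90AA1 was not determined. The HSP90AA1 density of 0.338 per 10 kb (0.0409 to 1.22) lies below the limit of 4.35 for HSP90AB1, so these counts do not separate the paralogues. These 2 were the only Alu clusters in the 23 genes. HSPA8, HSP90B1, HSPA5 and CALR held 0. At the mean density of the list the 5 chaperone genes would hold 0.379 clusters.

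Of the remaining 5 genes, 4 held a cluster. At the mean density of the list, a background of the genome and not of expressed genes, the 5 would hold 0.150 clusters. They belong to the list chosen with earlier results of these data known, so no excess is read from 4 of 5. SPARC, a secreted matrix protein, had 2 clusters, and FTH1 (ferritin heavy chain), LGALS1 (galectin-1) and S100A6 (a calcium-binding protein) had 1 each, all non-Alu. FTL, the ferritin light chain, had 0. In the 8 comparison genes with a cluster, 8 of the 10 clusters were non-Alu, and in EEF1A1 4 of 4 were, while non-Alu clusters are 15.1% of the list.

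**Figure D4:**
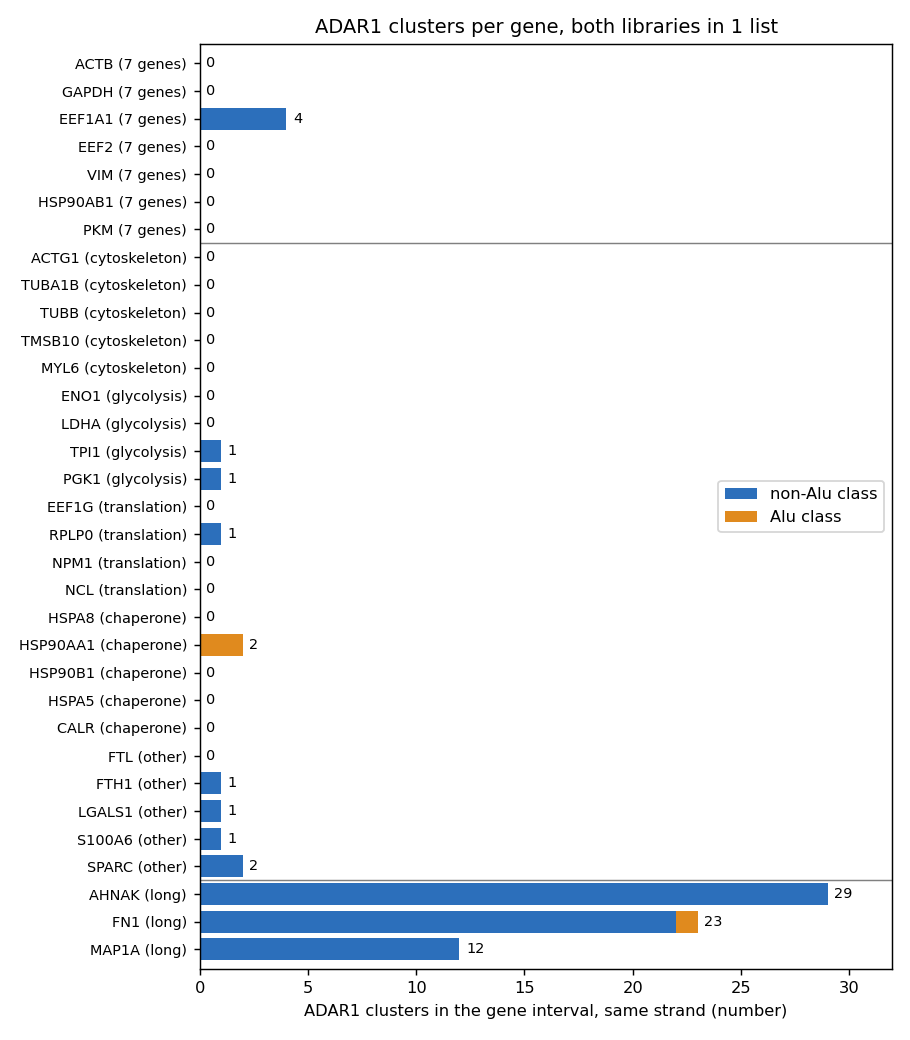
Number of same-strand ADAR1 clusters in each gene interval (x axis), split into non-Alu (blue) and Alu (orange), for the 7 genes, 23 other short abundant mRNAs grouped by role, and 3 long transcripts. EEF1A1 has 4, no short comparison gene has more than 2, and the long transcripts have 12 to 29.

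Long transcripts that hold many clusters in this list gave a contrast. AHNAK held 29 clusters in 113 kb (2.56 per 10 kb, exact 95% Poisson interval 1.71 to 3.67), FN1 held 23 in 75.9 kb (3.03, 1.92 to 4.55) and MAP1A held 12 in 20.8 kb (5.77, 2.98 to 10.1). These 3 were chosen because they were known to hold many clusters, so their counts are a description. The 7 genes together had 0.560 per 10 kb (0.153 to 1.43), and given that choice no difference is read from these values. EEF1A1, at 7.41 (2.02 to 18.97), has an interval that overlaps each of them.

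Per coding length EEF1A1 lay in the range of the long transcripts. EEF1A1 had 2.89 non-Alu clusters per kb of its longest coding sequence, FN1 2.96, AHNAK 1.64 and MAP1A 1.43. As a set the 7 genes had 0.355, the 23 comparison mRNAs 0.297 and the 3 long transcripts 1.88. S100A6 had 3.70 from 1 cluster in 270 coding bases. The other comparison genes with a cluster had less than EEF1A1, from 0 in HSP90AA1 to 2.47 in LGALS1. Since 1 cluster in a short coding sequence can exceed all these values, no likeness is read from them. In total number EEF1A1 was lower than all 3 long transcripts. Its coding sequence of 1386 bases compares with 17670 in AHNAK, 8409 in MAP1A and 7431 in FN1. Whether the clusters lie in coding sequence, untranslated regions or introns was not determined for any of these genes. The 6 genes without a cluster had 9.87 kb of coding sequence in all, more than that of FN1 or MAP1A and less than that of AHNAK. The 6 genes and the long transcripts were each picked by their cluster counts, so no difference is read from these lengths.

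Near-identical gene copies can affect which clusters a read set gives, since reads that match several places may be dropped or shared. RefSeq (GRCh38.p14) lists 65 pseudogenes named after GAPDH, 50 after EEF1A1, 14 after ACTB and 5 after PKM, and 0 after EEF2, VIM and HSP90AB1. Only symbols made of the gene's own symbol, P and a number were counted, so copies with other names are missed. The gene with clusters thus has many named copies, and genes at 0 are found both with and without them. How the authors treated such reads is not stated in the labels, and the part of these copies in the counts was not tested.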

How the data were processed

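The authors deposited 1 list of clusters for both CLIP-seq libraries. Its columns, which are positions rather than a measured unit, give start, end, strand and class. Per the submitters' processing notes, cutadapt 1.1, Novoalign 2.08.22 and hg19 were used. The cluster caller is not given in the sources used here, nor are its thresholds, how the libraries were joined or how the Alu class was set. Starts were read as counted from 0 and are printed counting from 1.

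Clusters were assigned to genes by midpoint and strand with Python 3.11.15, numpy 2.4.6, pandas 2.3.3, scipy 1.17.1 and matplotlib 3.10.9. The hg19 intervals of the 7 genes were given and were 0.897 to 1.06 times the RefSeq gene length. Comparison intervals were kept when chromosome and strand matched and the length was 0.8 to 1.5 times that of RefSeq, and ALDOA and TPT1 were left out for length. GENCODE release 29 and RefSeq, both on GRCh38, gave lengths, strands and names only. No hg19 genome was used here, so no sequence is printed.

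The members and lists were chosen with earlier results of these data known. All 7 members, each comparison gene with a cluster and the 3 long transcripts were to be named, and the comparison genes without a cluster are named to complete their groups. Counts have exact 95% Poisson intervals, and a count of 0 has a limit of 3 clusters. That limit is lower than the 3.69 clusters at which the exact interval for 0 ends, so limits and intervals are not the same measure. Background windows ran from the first to the last cluster of each chromosome, per strand. Assignment was checked on a simulated list, in which all 21 clusters planted inside the intervals of the members were recovered. That checks the counting only, and not the place of the intervals or the detection of clusters. Alternatives were any overlap, wider intervals, either strand, a length filter, merging and leaving out a gene.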

Additional observations from a re-analysis of the deposited data

How the results depend on the processing

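Of 39 alternative values, 26 stayed within the set range, which was under 1.5-fold for counts and the Poisson interval for the density. The count of 4 clusters was the same with any overlap, intervals extended by 1 kb, either strand, clusters at or above the median length of 192 bases, merging within 50 bases, and without PKM. Extending by 10 kb gave 6 clusters in 2 genes, 2 of them Alu, by construction from clusters beside PKM. Leaving out EEF1A1, chosen after the data were seen, gave 0 clusters, 0 genes and 0 per 10 kb. The comparison mRNAs held 10 clusters in each setting, also with ALDOA and TPT1. Limiting windows to those with another same-strand cluster within 100 kb raised the share with a cluster to 3.61% (length of ACTB), 4.06% (GAPDH), 5.24% (EEF1A1), 6.55% (HSP90AB1), 8.59% (VIM), 8.66% (EEF2) and 22.9% (PKM). No paired analysis was possible because AB1 and AB2 are pooled in a single list, and for that reason neither library could be left out. Without read counts, the depth behind a count of 0 is unknown.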
